A study of Ovis aries with 36 samples.

Results

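The gene expression of the hippocampus was compared between 5 preterm lambs that had been supported outside the uterus and 2 preterm lambs examined at delivery. The comparison rests on 7 of the 36 libraries of the study, the hippocampus libraries of supported lambs A, B, C, D and E and of preterm lambs H and I, which were chosen by their labels. Of 27054 genes in the table, 16370 passed the filter on low counts and were tested. The supported lambs (labelled Experimental, 4 female and 1 male, lamb C) were born preterm, cannulated at delivery and kept on the EXTEND model until close to 127 days of gestation. The preterm controls (lamb H female, lamb I male) had necropsy straight after delivery, with no support. The late preterm controls (lambs F and G, both male) formed another arm, which was delivered at 127 days and had necropsy at once. Its 2 hippocampus libraries entered the fit to share the estimate of the spread. The age at delivery of the preterm and supported lambs is not given in the labels, no dose or drug is named, and all animals were sheep (Ovis aries). Since the supported lambs were older at necropsy than the preterm controls by design, growth over that time and the support itself cannot be told apart in this comparison.

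The hippocampus is a folded part of the medial temporal lobe that serves memory and spatial navigation. It is built from the layered pyramidal cell fields and the dentate gyrus, where neurons continue to be born late in development, and fluid-filled ventricle, white matter and cortex lie against it. EXTEND is a system in which a preterm lamb lies in fluid and its blood is oxygenated through the umbilical vessels, so that the lungs are not used for gas exchange. In late gestation the sheep brain grows rapidly, its cortex folds and myelin begins to form.

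Each library was a bulk mRNA sample, so a lower level of a gene can reflect fewer cells of a type or less RNA per cell, which cannot be told apart. The 9 hippocampus libraries held 10474593 to 18029099 counts, and the preterm libraries (12595338 and 10474593) and that of supported lamb A (11206149) were the shallowest. Genes are given by Ensembl identifier, because 0 of the identifiers matched the reference table. Names, functions and positions are therefore not given, and lists of hippocampal, glial, vascular and choroid plexus markers and of hypoxia or inflammation genes could not be tested. The labelled tissue was checked against the other regions instead. For this, every hippocampus library and the regional means of the other 8 lambs were centred, and Pearson's r was taken over genes, as a description without a test.

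The libraries labelled hippocampus did not all match that region best. Among supported lambs, A (r = 0.447), C (0.246) and D (0.508) matched the hippocampus best. The next best region was motor cortex in A (0.379) and basal ganglia in C (0.209) and D (0.347), with the narrowest margin in C. Lambs B and E matched the basal ganglia best, at 0.41 and 0.454 against 0.074 and 0.112 for their own region. Both preterm libraries matched the motor cortex best, at 0.479 in lamb H and 0.424 in lamb I, against 0.215 and 0.276 for the hippocampus. Late preterm lamb F matched the hippocampus (0.401), and late preterm lamb G matched the motor cortex (0.58 against 0.333). The hippocampus means themselves included libraries that matched another region best, so the reference for the hippocampus was mixed. The comparison cannot be made without the preterm libraries. Its main count is given below also without lambs B and E.

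Make-up was then scored with genes that mark the other regions. Lists were drawn from the libraries outside the hippocampus of the 7 lambs A to G, taking genes at least 1 log2 unit higher in a region than in each of the other 2 in at least 5 lambs. A score is the mean log2 CPM (counts scaled to library size, prior count 2) over a list. The motor cortex score (128 genes) in supported lambs A to E was 3.21, 1.40, 2.81, 2.94 and 1.32, and it was 3.38 in preterm lamb H and 3.32 in lamb I. All supported libraries lay below both preterm libraries, with lambs B and E lowest. The difference of means was -1.01 (2.34 ± 0.905 SD, n = 5, against 3.35 ± 0.042 SD, n = 2, two-sided exact permutation p = 0.0952, adjusted p = 0.19 over 4 scores). The basal ganglia score (98 genes) in lambs A to E was 1.70, 2.28, 1.58, 1.90 and 2.16, against 0.64 in H and 1.24 in I. The groups again did not overlap, this time with the supported lambs higher, by 0.98 (1.92 ± 0.298 SD, n = 5, against 0.94 ± 0.425 SD, n = 2, exact permutation p = 0.0952, adjusted p = 0.19). With 5 lambs against 2 there are 21 arrangements, and 0.0952 is the smallest p that this design can give.

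**Figure D1:**
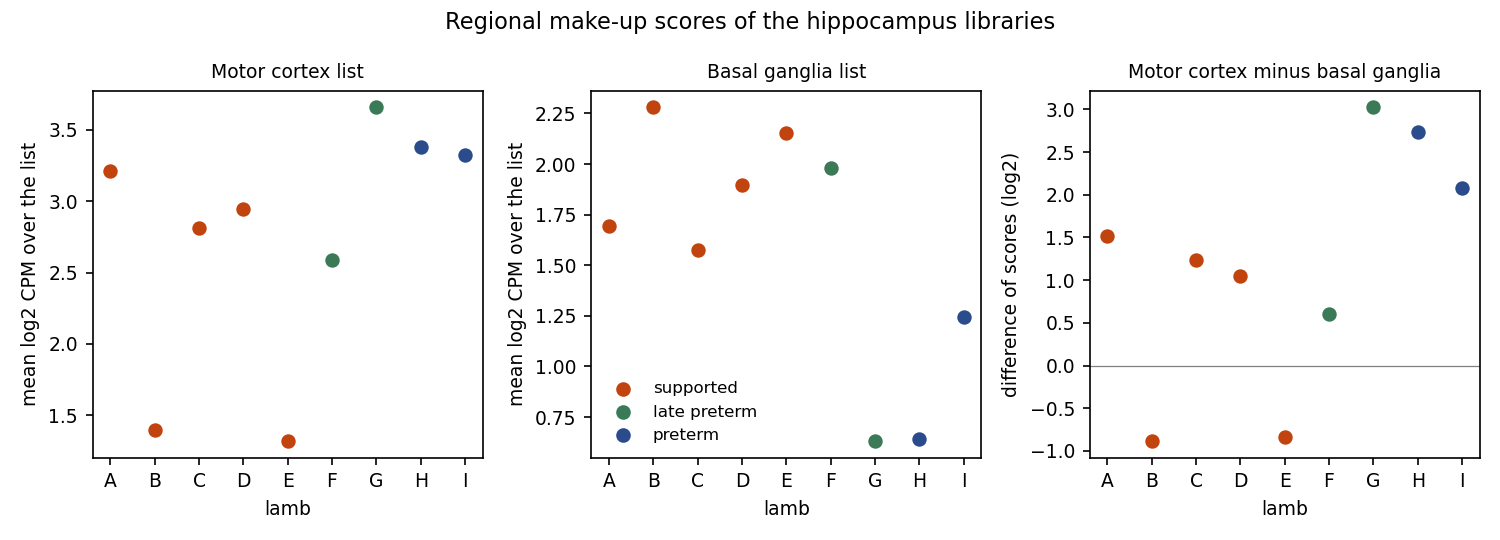
Motor cortex score, basal ganglia score and their difference (y axes, log2 units) in each hippocampus library (x axis, lamb), coloured by arm. All 5 supported libraries lie below both preterm libraries in the motor cortex score and above both in the basal ganglia score, and late preterm lamb G lies at the preterm end of each.

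The other scores did not separate the arms. The cerebellum score (588 genes) differed by 0.06 (exact permutation p = 0.476 for 5 against 2). A hippocampus score, built from 30 genes that were higher there than in every other region in both late preterm lambs, was 1.99, -1.01, -0.22, 1.85 and -1.19 in lambs A to E and 0.85 and 1.25 in H and I (difference -0.77, exact permutation p = 0.571). Supported lambs A and D were thus highest and B, C and E lowest, on either side of the preterm libraries. That list rests on late preterm lambs F and G alone, and the library of G matched the motor cortex best (r = 0.58 against 0.333). The hippocampus score is therefore a weak measure of hippocampal content. The motor cortex score minus the basal ganglia score was 1.51, -0.89, 1.24, 1.05 and -0.84 in lambs A to E, 0.61 in F, 3.03 in G, 2.74 in H and 2.08 in I. The arms compared did not overlap in it (exact permutation p = 0.0952), so arm and regional make-up cannot be fully told apart in these 7 libraries. Late preterm lamb G had the highest value of all, above both preterm lambs.

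The question of the comparison was which genes of the hippocampus differed by the end of support. At an adjusted p under 0.05, 413 of 16370 genes differed (2.52%), by edgeR's quasi-likelihood test adjusted over all of them after Benjamini and Hochberg (n = 5 and 2). In supported lambs 216 of these were higher (1.32%), and 197 were lower (1.2%). Genes that were higher had a median log2 fold change of 1.15 and those that were lower one of -0.87. A change of at least 2-fold was found in 130 of the higher and 82 of the lower genes, and one of at least 4-fold in 49 and 9. The largest changes were therefore mostly increases. All 413 genes showed no overlap between the 5 supported and 2 preterm values, against 5254 of all tested genes (32.1%).

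The calls lay close to the threshold. Their smallest adjusted p was 0.0126 and their median 0.0427, with 65 of 413 under 0.03. An unadjusted p under 0.05 was found for 4008 genes (24.5%), and an adjusted p under 0.10 for 1614 genes, 881 higher and 733 lower. Leaving out 1 library at a time gave 939 genes without lamb A, 68 without B, 40 without C, 282 without D, 86 without E, 71 without F, 72 without G, and 0 without H or without I (1971 and 2484 genes at an unadjusted p under 0.05). In each of these 9 fits all 413 genes had an unadjusted p under 0.05. Their direction could not turn in these fits, since their groups do not overlap. Without both B and E, the libraries that matched the basal ganglia, 149 genes were called, of which 108 were among the 413. The same comparison in DESeq2, with its own test and size factors, called 2138 of 15718 tested genes, including all 413.

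Among the genes that rose, 2 are named, 1 for the largest fold change and 1 for the smallest adjusted p among genes averaging 1 log2 CPM or more, with over 6 counts in a preterm library. ENSOARG00000002491 stood at 134, 1889, 1020, 441 and 1028 CPM in supported lambs A to E and at 9.22 and 3.66 CPM in preterm lambs H and I. Every supported library exceeded both preterm libraries by more than 10-fold, but the supported lambs differed widely among themselves, with lamb A lowest and lamb B highest. The means were 902.6 ± 671.9 CPM (SD, n = 5) and 6.44 ± 3.93 CPM (SD, n = 2), and edgeR put the log2 fold change at 7.12 ± 1.23 (SE, adjusted p = 0.0383). Late preterm lambs F and G stood at 408 and 216 CPM, within the range of the supported lambs. With depth group as a term the log2 fold change was 4.37 (edgeR adjusted p = 0.445). With the mean level of the genes that varied with it as a covariate, a fit chosen after seeing the data, it was 1.84 (edgeR adjusted p = 0.429). Those genes were picked for following ENSOARG00000002491, so a drop was built into that fit, which is no check of the call. This call was kept in 2 of the 9 fits that left out 1 library, those without A or without D, and its adjusted p ran from 0.0205 to 0.342 over the 9. ENSOARG00000002491 was not called between supported and preterm lambs in the other regions. Its log2 fold change was 1.04 in the motor cortex and 2.06 in the basal ganglia (edgeR adjusted p = 0.48 and 0.623). In the cerebellum it was -0.26 (edgeR adjusted p = 0.777).

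ENSOARG00000007785 showed the opposite profile, a smaller change with little spread. Its levels were 254.9, 255, 298, 265.6 and 273 CPM in lambs A to E and 112 and 108 CPM in H and I. The supported lambs lay close together and all above 2 times the preterm level. The means were 269 ± 17.9 CPM (SD, n = 5) and 110 ± 3.20 CPM (SD, n = 2), and edgeR put the log2 fold change at 1.29 ± 0.11 (SE, adjusted p = 0.0126). Late preterm lambs F and G, at 254 and 232.5 CPM, lay just below the supported lambs. In the motor cortex of the same animals it stood at 227 to 242 CPM in the 5 supported and 136 and 154 CPM in the 2 preterm libraries (edgeR log2 fold change 0.70, adjusted p = 0.00266). It was not called in the basal ganglia (edgeR log2 fold change 0.91, adjusted p = 0.287) or the cerebellum (0.43, adjusted p = 0.325). In the cerebellum preterm lamb H, at 157 CPM, lay within the supported range of 133.5 to 202.6 CPM.

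ENSOARG00000010518 had the largest decrease among the lower genes that met the same filter. It stood at 1.85, 1.21, 1.07, 3.25 and 2.10 CPM in lambs A to E, against 33.8 and 17.8 CPM in lambs H and I. No supported library came near the lower of the preterm values. The means were 1.90 ± 0.872 CPM (SD, n = 5) and 25.8 ± 11.3 CPM (SD, n = 2), and edgeR put the log2 fold change at -3.76 ± 0.44 (SE, adjusted p = 0.0201). Late preterm lamb F, at 3.02 CPM, lay within the range of the supported lambs, and lamb G, at 6 CPM, lay between the arms. In the motor cortex its levels were 2.59 to 6.23 CPM in supported and 17.9 and 28.5 CPM in preterm libraries (edgeR log2 fold change -2.67, adjusted p = 0.00113). In the cerebellum it was low in all arms, at 0.754 to 3.54 CPM.

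ENSOARG00000002051 had the smallest p among the other lower genes that met it. Its levels in lambs A to E were 158, 154, 151, 137 and 154 CPM, against 315.5 and 291 CPM in H and I. The means were 151 ± 8.04 CPM (SD, n = 5) and 303 ± 17.5 CPM (SD, n = 2), and edgeR put the log2 fold change at -1.01 ± 0.10 (SE, adjusted p = 0.0143). Late preterm lambs F and G, at 146 and 177 CPM, stood near the supported lambs. Its motor cortex levels followed the same order, with 145 to 166 CPM in supported and 285.5 and 306 CPM in preterm lambs (edgeR log2 fold change -0.90, adjusted p = 0.000804). It was not called in the basal ganglia (edgeR log2 fold change -1.16, adjusted p = 0.242). In the cerebellum it was called (edgeR log2 fold change -1.91, adjusted p = 0.0373), but the preterm lambs differed from each other there. Lamb H stood at 629 CPM and lamb I at 138 CPM, against 97.1 to 109.5 CPM in the supported lambs. The hippocampus calls of ENSOARG00000007785, ENSOARG00000010518 and ENSOARG00000002051 were each lost without H and without I. They were kept in the other 7 of the 9 fits that left out 1 library.

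**Figure D2:**
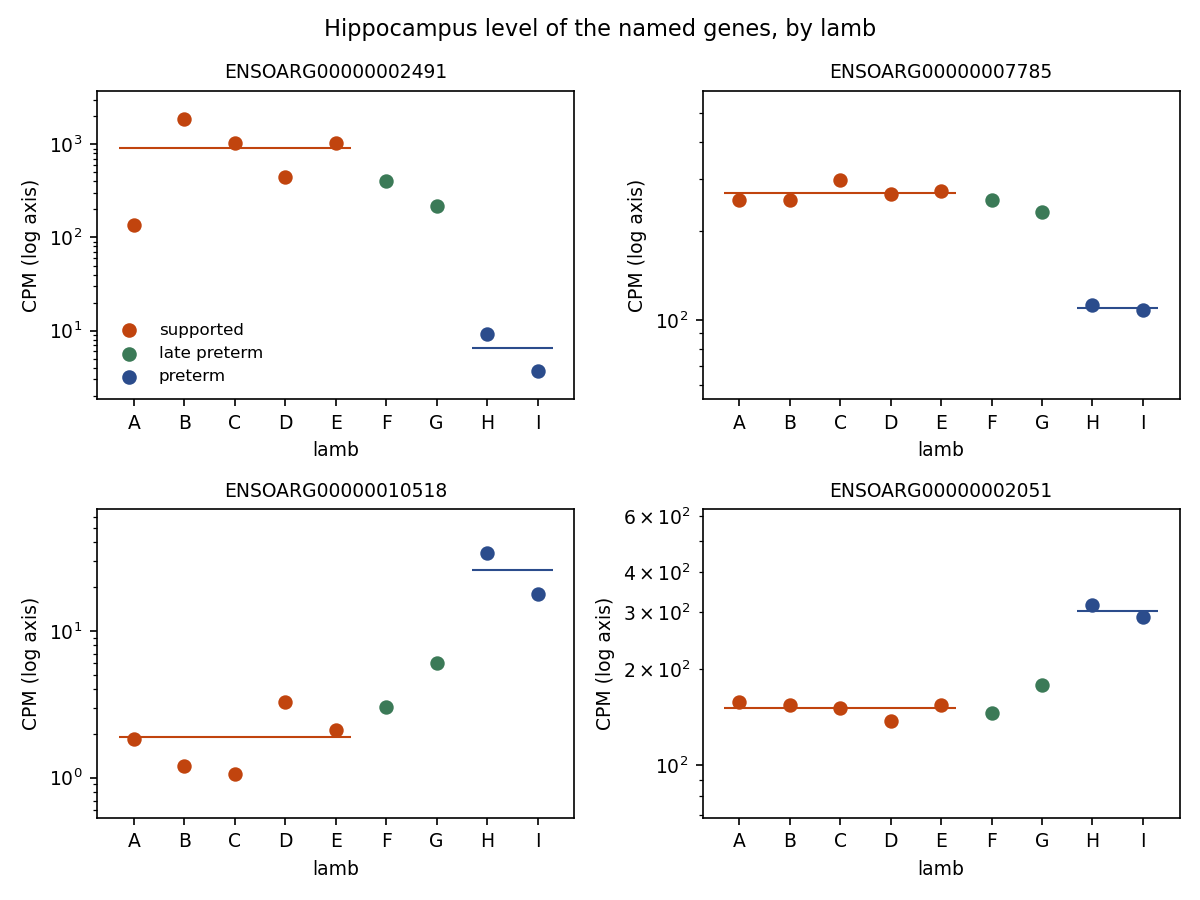
Level of the 4 named genes (y axis, CPM, log axis) in the hippocampus library of each lamb (x axis), coloured by arm, with lines at the means of the supported and preterm arms. ENSOARG00000002491 spreads from 134 to 1889 CPM over the supported lambs, whereas ENSOARG00000007785 and ENSOARG00000002051 hardly vary within an arm.

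The late preterm lambs are the controls closest in age to the supported lambs at necropsy. Neither comparison with them had a called gene. For late preterm against preterm, 0 of 16370 genes were called by edgeR (0%), with 1387 at an unadjusted p under 0.05 and 175 called by DESeq2. For supported against late preterm, 0 were called by edgeR (0%), with 796 at an unadjusted p under 0.05 and 25 called by DESeq2. By their medians, the 413 genes stood between the other arms in the late preterm lambs. The median log2 fold change of the 216 higher genes was 1.15 for supported against preterm, 0.74 for late preterm against preterm and 0.39 for supported against late preterm. For the 197 lower genes the medians were -0.87, -0.60 and -0.28. These comparisons share libraries, so the medians are side by side values only. Over all tested genes the 3 medians were 0.03, 0.02 and 0.01.

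The same genes were followed in the other regions of the same lambs. In the motor cortex the 216 genes had a median log2 fold change of 0.78 between supported and preterm lambs and the 197 genes one of -0.61, against a median of -0.002 over all genes tested there. There, 117 of the 216 and 129 of the 197 were called, where 12.2% of 16173 tested genes were. In the basal ganglia the medians were 0.82 and -0.61, but 0 of the 216 and 0 of the 197 were called by edgeR there, where 0 of 16679 tested genes were (0%). At an unadjusted p under 0.05 there were 132 of the 216, 141 of the 197 and 2028 of all genes. In the cerebellum the medians were 0.19 and 0.05, with positive values for 123 of 215 in the first set and 101 of 197 in the second, so neither set had a common direction there. The cerebellum had 32 and 31 of them called, where 9.57% of 16304 tested genes were. The hippocampus is from the same animals as these regions, so the values are not independent of each other.

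Whether the change differed between regions was tested directly, with the lamb as a block. Hippocampus minus motor cortex gave 0 called genes of 16751 (0%), a smallest adjusted p of 0.176, 2578 genes at an unadjusted p under 0.05 (15.4%) and 403 called by DESeq2. Hippocampus minus basal ganglia gave 0 of 16976 (0%), a smallest adjusted p of 0.831, 814 genes at an unadjusted p under 0.05 (4.8%) and 32 called by DESeq2. The 413 genes had a median difference of 0.37 (higher genes) and -0.30 (lower genes) to the motor cortex and of 0.33 and -0.23 to the basal ganglia, in each case larger in the hippocampus, the region on which they were chosen. For ENSOARG00000002491 the difference to the motor cortex was 5.81 ± 1.41 (SE, edgeR adjusted p = 0.201), and for ENSOARG00000002051 it was -0.12 ± 0.10 (SE, edgeR adjusted p = 0.612).

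How far the changes followed the make-up of the piece was then described gene by gene. Motor cortex and basal ganglia were compared within lambs A to G, which uses no hippocampus library and no preterm lamb, and 1669 of 15580 genes differed (10.7%; between 417 without lamb E and 1788 without lamb A). Of the 216 genes higher in the supported hippocampus, 174 (80.6%) were lower in motor cortex than in basal ganglia, with a median log2 difference of -0.24. Of the 196 lower genes measured there, 170 (86.7%) were higher in motor cortex, with a median of 0.22. Over all tested genes 51.9% were lower in motor cortex and 48.1% higher. Of those with a positive change in the hippocampus 66.8% were lower, and of those with a negative change 64.3% were higher. The called genes lay mostly on the side of the difference in regional scores. In these, supported libraries were lower for motor cortex and higher for basal ganglia than preterm libraries. Among the supported libraries only B and E matched the basal ganglia best. The motor cortex score minus the basal ganglia score was positive in A, C and D. All 29 called risers that differed between those regions were lower in motor cortex, where 663 of 794 such genes with any positive hippocampus change were. All 34 such fallers were higher in motor cortex, where 778 of 871 such genes with a negative change were. ENSOARG00000002051 was among the latter (log2 difference 0.57, adjusted p = 0.0227), and the other 3 named genes were not called between those regions.

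**Figure D3:**
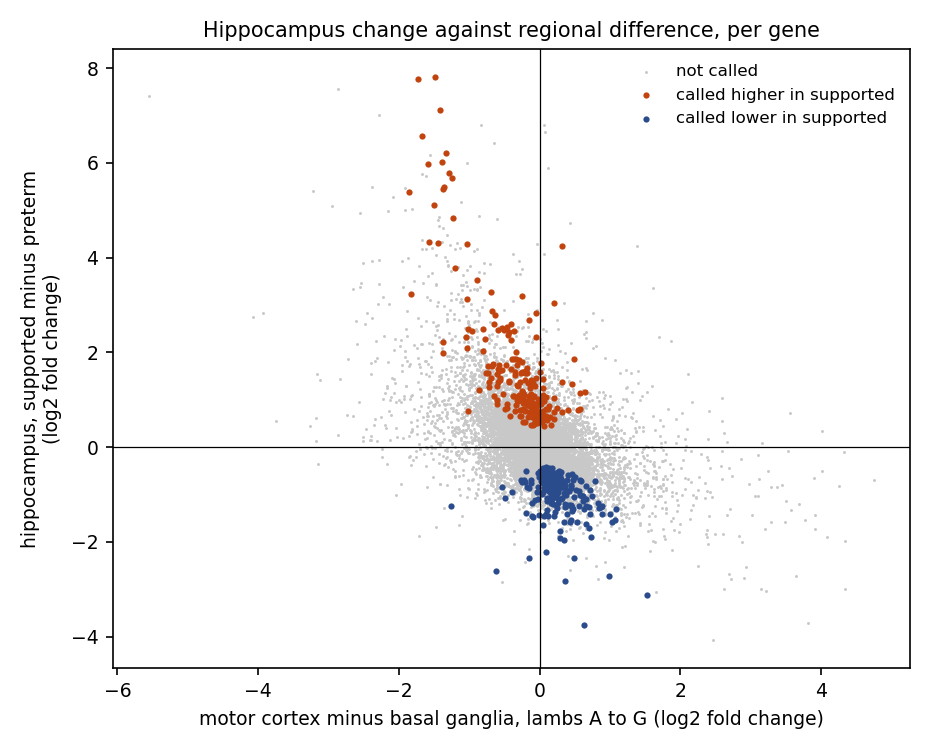
Log2 fold change between supported and preterm hippocampus (y axis) against the log2 difference of motor cortex minus basal ganglia in lambs A to G (x axis), 1 point per gene, with called genes coloured. Called risers lie mostly left of 0 and called fallers mostly right of it, and many called genes lie close to 0 on the x axis.

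The cerebellum list had 7 genes called higher and 12 called lower of 515 tested (3.69%). The motor cortex and basal ganglia lists had no calls, where 2.52% of all tested genes were called. Each score is a mean over its list, so the direction of the list genes restates the score. Of the 118 tested genes of the motor cortex list 0 were called, with a median log2 fold change of -0.79 and 13 at an unadjusted p under 0.05. Of the 88 tested genes of the basal ganglia list 0 were called, with a median of 1.19 and 22 at an unadjusted p under 0.05. Genes that differed between the regions were called in the hippocampus at 3.84% (29 of 756 higher in basal ganglia) and 3.74% (34 of 909 higher in motor cortex). Of the 4980 genes with a difference of 0.25 log2 units or more and no regional call, 143 were called (2.87%). An unadjusted edgeR p under 0.05 was found for 41.7%, 32.9% and 25.5% of these classes in turn, and for 22.6% of the class given next. Among the 8902 genes with a regional difference under 0.25 log2 units and no regional call, 206 were called (2.31%), 105 higher and 101 lower, and the median size of their log2 change was 0.83. In the motor cortex itself their median changes between supported and preterm lambs were 0.75 for the higher and -0.63 for the lower genes. With the motor cortex minus basal ganglia score as a covariate, edgeR called 0 genes, with 2231 at an unadjusted p under 0.05. All 413 genes then kept their direction with an unadjusted p under 0.05, at a median change of 0.89 in the called direction against 1.02 before. The part of regional make-up in the changes was not tested beyond these values.

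Single libraries differed in how far they stood from the preterm lambs. The genes were chosen on lambs A to E against H and I, so the sign of each supported value is fixed by that choice and is only described. Against the preterm mean, the median of the 216 higher genes was 0.99, 1.31, 1.28, 1.03 and 1.17 in supported lambs A to E. It was 0.81 and 0.68 in late preterm lambs F and G. For the 197 lower genes the medians were -0.77, -0.97, -0.99, -0.82 and -0.87 in A to E and -0.68 and -0.52 in F and G. Lambs B and C were furthest from the preterm lambs and lamb A, the shallowest supported library, was nearest of the supported lambs. Late preterm lambs F and G took no part in the difference that chose the genes, but they are measured against the same preterm libraries, so their values are no independent check. The piece of lamb G matched the motor cortex, as both preterm pieces did, and its values were the nearest to 0. Over the 206 genes with a small regional difference, lamb G stood at 0.52 and -0.44, and the supported lambs at 0.73 to 0.98 and -0.68 to -0.86.

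**Figure D4:**
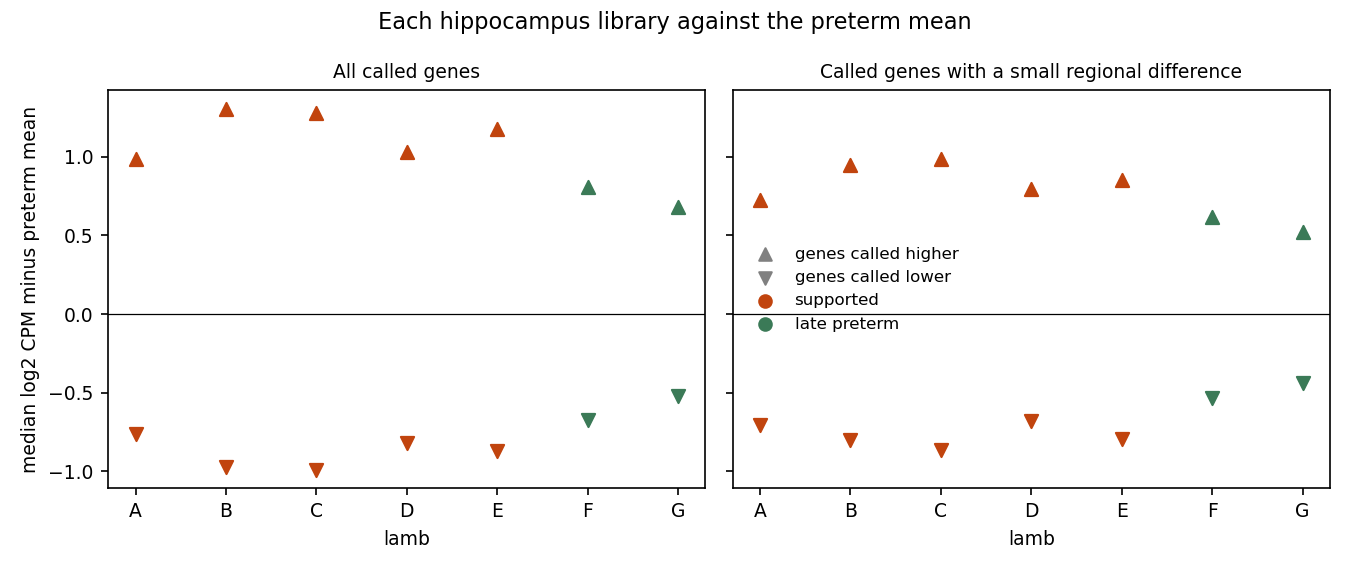
Median log2 CPM relative to the mean of the 2 preterm libraries (y axis) in each supported and late preterm hippocampus library (x axis), for genes called higher (upward triangles) and lower (downward triangles), over all called genes (left) and those with a small regional difference (right). The sign of the supported values is fixed by how the genes were chosen, and late preterm lambs F and G lie nearest to 0.

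Some of the largest increases were in genes that varied together also outside the hippocampus. Over the 27 libraries of the other regions, 28 genes correlated with ENSOARG00000002491 at r of at least 0.9, as a description across libraries that share animals and regions. The search started from the named riser, and started from the low-count gene with the largest fitted change, at 0 counts in both preterm libraries, it found 0 genes at that r. In the hippocampus all 28 were higher in the supported lambs without overlap (16.3% of all tested genes were), and 12 were called (1.32% of all tested genes were called higher). The starting gene was itself chosen as a called riser without overlap in these hippocampus libraries. Genes that follow it are likely to rise too, so these shares are only described. The median log2 fold change of the 28 genes was 4.42, from 1.49 to 7.78. The mean log2 CPM over the 28 genes was 4.54, 7.85, 6.95, 5.80 and 6.94 in lambs A to E, 5.92 and 5.05 in F and G, and 2.49 and 1.94 in H and I. Lamb B was highest and lamb A lowest among the supported, and both preterm libraries lay below all others. With ENSOARG00000002491 they took 0.231% to 2.88% of all counts in the supported libraries, 0.70% and 0.383% in late preterm F and G and 0.045% and 0.0326% in preterm H and I.

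**Figure D5:**
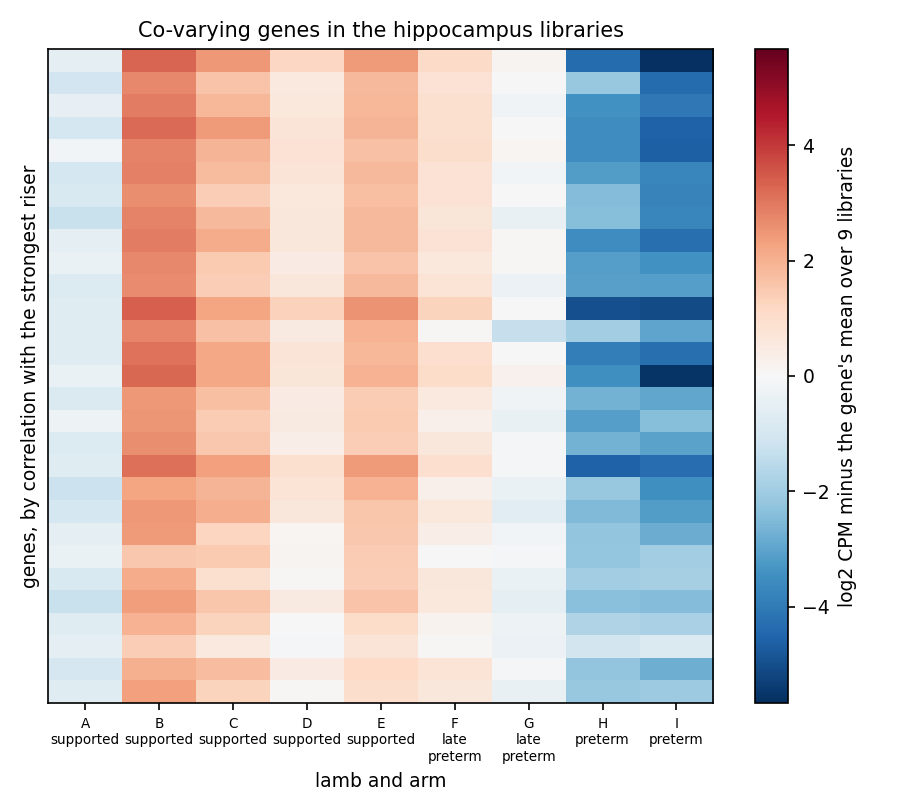
Level of the 28 co-varying genes and ENSOARG00000002491 (rows, ordered by correlation) in the hippocampus library of each lamb (columns), as log2 CPM minus the mean of each gene over the 9 libraries. The rows share 1 profile, highest in lamb B and lowest in the 2 preterm lambs.

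Outside the hippocampus these genes also varied widely within an arm. Over all arms, their mean log2 CPM ran from 3.605 to 6.65 in the motor cortex libraries, from 2.34 to 7.90 in the basal ganglia and from 4.23 to 5.92 in the cerebellum. In the supported motor cortex libraries alone it ran from 4.22 to 6.33. The lowest value in the basal ganglia was a preterm library and the other preterm library stood at 5.77, while supported basal ganglia libraries ran from 3.76 to 7.72. In the cerebellum the preterm libraries, at 5.68 and 5.92, lay at the upper end of the supported ones, at 4.23 to 5.92. A low level in preterm tissue was thus not seen in every region, and the level of these genes differed from library to library.

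These genes made up part of the largest changes. Of the 49 called risers of at least 4-fold, 13 belonged to them, ENSOARG00000002491 included, so most lay outside them. The 203 called risers outside them had a median log2 fold change of 1.11. Among all tested genes 118 were at least 16-fold higher in the supported lambs by the fitted value (0.721%), and 18 of these were called. Of the 118, 68 had at most 3 counts over both preterm libraries together, so that their fitted folds are not bounds, and with those genes set to the floor of 3 counts over the group 75 stayed at 16-fold or more. The risers of at least 4-fold had a median SD of 0.73 log2 units among the supported lambs, against 0.22 for the smaller risers, 0.20 for the genes that fell and 0.30 over all tested genes. With the mean level of the 28 genes as a covariate, a fit chosen after seeing the data, edgeR called 0 genes, with 1502 at an unadjusted p under 0.05. Of the 413 genes 409 kept their direction and 133 an unadjusted p under 0.05, at a median change of 0.57 in the called direction. That level and the arm do not overlap, so their parts cannot be told apart here.

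Depth and sex were checked in the same way. The depth groups put lamb A with both preterm lambs, and with depth group as a term edgeR called 0 genes, with 1208 at an unadjusted p under 0.05. All 413 genes kept their direction, and 403 an unadjusted p under 0.05, at a median change of 0.89 in the called direction. Within the shallower group only lamb A is supported, so a comparison within depth groups rests on it. Thinning every library to 10474593 counts left 402 calls, and with sex as a term 278 genes were called.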

How the data were processed

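Paired reads were trimmed (fastp), inspected (SeqKit) and mapped by STAR against Ensembl's sheep genome, release 107, per the series' design text, and the authors deposited STAR's unstranded counts per gene. Tool versions: not given in the sources used here. Strand was not used, so antisense or overlapping genes cannot be told apart, and near-identical copies may lose reads. All 36 columns were matched to samples by name. Over 12 pairs of same-arm hippocampus libraries the chi-square of counts per degree of freedom was 12.3 to 97.5, so none of these pairs was a copy. Pairs across arms or regions were not compared.

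From these counts, the 9 hippocampus libraries were fitted with edgeR 4.0.16 in R 4.3.3 (TMM factors, filterByExpr, quasi-likelihood F-test, Benjamini-Hochberg threshold 0.05). The standard error is the absolute log2 fold change divided by the square root of F. DESeq2 1.42.0 was an alternative. CPM and log2 values were computed here. Regional fits had the lamb as a block, since labels give every region's library the same animal. Deviations of same-lamb libraries from group means correlated at 0.084 to 0.29 with the motor cortex and 0.048 to 0.408 with the basal ganglia. The fits were also run on simulated counts with planted fold changes and no differences in make-up, with outcomes not given here.

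The samples, lists and tests were chosen with earlier results of these data known. Named genes were, in each direction, the called gene with the largest fold change and that with the smallest adjusted p, with no overlap of groups, at least 1 log2 CPM on average and over 6 counts in at least 1 library of the lower group (408 of 413 genes met this). Symbols could not be assigned (0 of 27054 identifiers against 35057 genes of assembly ARS-UI_Ramb_v3.0), so the planned gene and marker lists were not tested.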

Additional observations from a re-analysis of the deposited data

How the results depend on the processing

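For supported against preterm hippocampus (413 genes, 216 higher and 197 lower), the count stayed within 1.5 times with upper-quartile scaling, no filter, a stricter filter and thinning, and with sex as a term apart from the higher genes, which numbered 132. DESeq2 gave 2138 (1251 higher, 887 lower), the 7 libraries alone 79 (33 and 46), and leaving out 1 library 0 to 939 (0 to 546 higher, 0 to 393 lower). Depth group as a term, and the regional score as a covariate, gave 0. Chosen after seeing the data, the level of the 28 co-varying genes as a covariate gave 0, and leaving out lambs B and E gave 149 (73 and 76). The cause was not tested. For late preterm against preterm and supported against late preterm, DESeq2 gave 175 and 25 genes in place of 0, and for the difference of the change to motor cortex and basal ganglia 403 and 32 in place of 0. Without the lamb block, these differences again gave 0 calls, and motor cortex against basal ganglia gave 1628 genes in place of 1669. Leaving out 1 lamb put the latter at 417 to 1788 (669 without B, 1023 without C, 880 without D, 954 without F, 615 without G). Over all 9 lambs, 86.05% of the higher genes were lower in motor cortex. A correlation of at least 0.8 gave 111 co-varying genes. Started from the called gene with the largest fitted change, which had 0 counts in both preterm libraries and did not meet the rule for named genes, the same search gave 0 genes at 0.9 (chosen after seeing the data), so the group of 28 depends on which riser starts it. The named genes kept their sign in all 20 alternatives, but ENSOARG00000002491 went from 7.12 to 4.37 with depth group as a term and to 1.84 with the co-varying genes as a covariate. The latter drop was built in, since those genes were picked for following it. With 5 supported and 2 preterm lambs, the two-sided exact test used cannot go below 0.0952.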
